A study of Homo sapiens with 20 samples.

Results

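The response of the myeloma line ARP1 to indirubin-3'-monoxime (I3MO) was set against the response of RPMI8226 and U266 to the same dose. All 3 are established human multiple myeloma cell lines, a cancer of antibody-secreting plasma cells, and the labels give bone marrow as their source and wild type as their genotype. The comparison used 12 of the 20 libraries of the series: DMSO, the vehicle, and 10 µM I3MO in each of the 3 lines, with 2 libraries in each of 6 groups. Total RNA was sequenced. Each line is a single cell model, and the sources used here state neither how long the cells were treated nor that the 2 libraries of a group are independent cultures. Each p-value thus rests on the spread among these libraries, and that spread may be technical. The 8 other libraries, of ANBL6 and a form labelled as bortezomib-resistant (ANBL6BR), had 5 µM I3MO and entered the model only to estimate the spread of each gene.

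For each gene the change with I3MO in ARP1 was taken on the scale log2(FPKM + 1), where FPKM (fragments per kilobase per M fragments) is the deposited unit of level. The mean change in RPMI8226 and U266 was subtracted. A positive response difference means that ARP1 moved further up, or less far down, than the other lines, so a gene can be higher in this comparison while it did not change in ARP1. Genes were counted as different only where the difference had one sign against the mean of both lines and against each line alone, at a limma adjusted p under 0.05 in all 3 tests. A few genes set to be reported did not meet this rule, and their values are given as such. Of 15687 tested genes 2476 met this rule (15.8%), 1849 with ARP1 higher (11.8%) and 627 with ARP1 lower (4.0%). Against the mean of both lines 5246 genes (33.4%) were called, 23.0% higher and 10.4% lower. Against RPMI8226 alone the share was 27.0% (18.1% and 8.91%), and against U266 alone 30.6% (21% and 9.7%). Differences and changes are given on this log2 scale, with the SE of the fit where ± is written.

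Indirubins are bis-indole compounds that inhibit several protein kinases, among them cyclin-dependent kinases and glycogen synthase kinase 3, and that bind the aryl hydrocarbon receptor. Plasma cells make large amounts of secreted protein, and the unfolded protein response keeps the folding capacity of their endoplasmic reticulum (ER) at the level this load needs. Its sensors act through transcription factors that bind short promoter elements in chaperone genes, while the p53 pathway and the cyclin-dependent kinases set whether such a cell goes on dividing.

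The promoters of 4 ER chaperone genes are shown because these genes carry the letters of an unfolded protein response element close to their start and yet split in the comparison: CRELD2, CALR and HYOU1 were lower in ARP1 than in each other line, and CANX was higher. They were chosen after their values were seen, for this split. The genes also differ in the GC content of their longest transcript. It was 54.5% in CRELD2, 53.9% in CALR and 55.2% in HYOU1, against 41.6% in CANX. Calls in this comparison depended on GC content, as described further on, and whether it accounts for this split was not tested. Each sequence holds 250 bases up to the start of the RefSeq transcript, from GRCh38.p14, 5′ to 3′ on the strand of the gene, with the element in capitals.
CRELD2: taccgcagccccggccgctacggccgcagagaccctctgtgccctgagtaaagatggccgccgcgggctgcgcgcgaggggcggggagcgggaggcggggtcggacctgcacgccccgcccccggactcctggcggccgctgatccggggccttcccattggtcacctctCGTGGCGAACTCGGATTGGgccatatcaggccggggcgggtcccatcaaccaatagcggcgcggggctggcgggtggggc
CALR: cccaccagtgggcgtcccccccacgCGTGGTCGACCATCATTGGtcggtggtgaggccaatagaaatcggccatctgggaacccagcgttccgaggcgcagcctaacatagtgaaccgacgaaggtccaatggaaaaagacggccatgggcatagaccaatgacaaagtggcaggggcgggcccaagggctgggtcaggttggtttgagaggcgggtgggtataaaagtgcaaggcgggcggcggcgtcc
HYOU1: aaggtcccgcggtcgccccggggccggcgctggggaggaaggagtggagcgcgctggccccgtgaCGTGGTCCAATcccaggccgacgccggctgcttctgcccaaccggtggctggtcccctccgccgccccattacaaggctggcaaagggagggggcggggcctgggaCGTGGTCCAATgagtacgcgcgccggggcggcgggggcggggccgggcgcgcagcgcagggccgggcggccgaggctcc
CANX: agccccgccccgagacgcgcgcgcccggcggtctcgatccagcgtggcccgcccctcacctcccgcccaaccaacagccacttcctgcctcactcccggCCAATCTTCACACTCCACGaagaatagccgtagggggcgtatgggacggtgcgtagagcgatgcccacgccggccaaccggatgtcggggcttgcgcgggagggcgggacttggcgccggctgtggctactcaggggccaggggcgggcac
The windows are chr22:49918384-49918633 (plus strand) for CRELD2, chr19:12938359-12938608 (plus strand) for CALR, chr11:119057206-119057455 (minus strand) for HYOU1 and chr5:179698679-179698928 (plus strand) for CANX, which has 4 annotated windows. The element in CRELD2, CALR and CANX is the ER stress response element, searched on both strands as CCAAT and CCACG with 9 bases of any kind between them. It lies 80 to 62 bases before the start in CRELD2, 225 to 207 in CALR and 151 to 133 in CANX. HYOU1 has 2 matches to ER stress response element II (ATTGG, any base, CCACG, both strands), the first 185 to 175 bases before its start. Both elements contain the letters of a CCAAT box. Of 35116 promoter windows of 300 bases, 27 (0.0769%) held the first element and 19 (0.0541%) the second. Among the ER folding genes with a window, the first element was in 2 of 6 that were lower in ARP1, in 1 of 5 that were higher and in 4 of 20 that did not differ the same way (HSP90B1, ERO1B, PDIA6 and HSPA5). The second was in 1 of 6, 0 of 5 and 2 of 20. A match is a description of these letters and not a measured binding site.

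Depth was similar across the 12 libraries, at 13.77 to 20.31 M fragments and 20766 to 26588 genes above 0. Replicates correlated across genes at r = 0.962 (U266 I3MO) to 0.989 (RPMI8226 I3MO); genes are not independent replicates in this measure. The summed level of 10 plasma cell markers ran from 217 to 626 FPKM, and of these FCRL5 stayed under 1 in all 12 libraries. Summed markers of 7 other cell types stayed at or under 6.22 FPKM, apart from epithelial markers in RPMI8226 (22.8 to 25.3), where EPCAM and KRT18 were the detected ones.

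Most of these genes changed in ARP1 itself. It rose in 1676 of the 1849 higher genes, and in 1332 of these neither other line was called. In 34 genes ARP1 rose while both other lines fell, and 108 of the higher genes fell in both other lines with no call in ARP1. Of the 627 lower genes ARP1 fell in 483, in 311 of them with no call in either other line, and 90 rose in both other lines with no call in ARP1. By line, I3MO changed 37.0% of tested genes in ARP1 (23.1% rose, 13.9% fell), 14.8% in RPMI8226 (6.19% and 8.62%) and 26.2% in U266 (10.5% and 15.8%). The 3 responses are each read against their own DMSO libraries, and the differences share the ARP1 libraries. A difference of at least 2-fold from both lines was found for 554 of the 2476 genes. ARP1 itself stayed under 1 FPKM in its 4 libraries in 98 of the higher and 20 of the lower genes. In 355 of the higher and 94 of the lower genes both other lines stayed under 1 FPKM in all their libraries, so there the comparison had little signal to set ARP1 against. In the plot of the ARP1 response against the mean of the other lines these genes lie along the vertical axis.

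**Figure D1:**
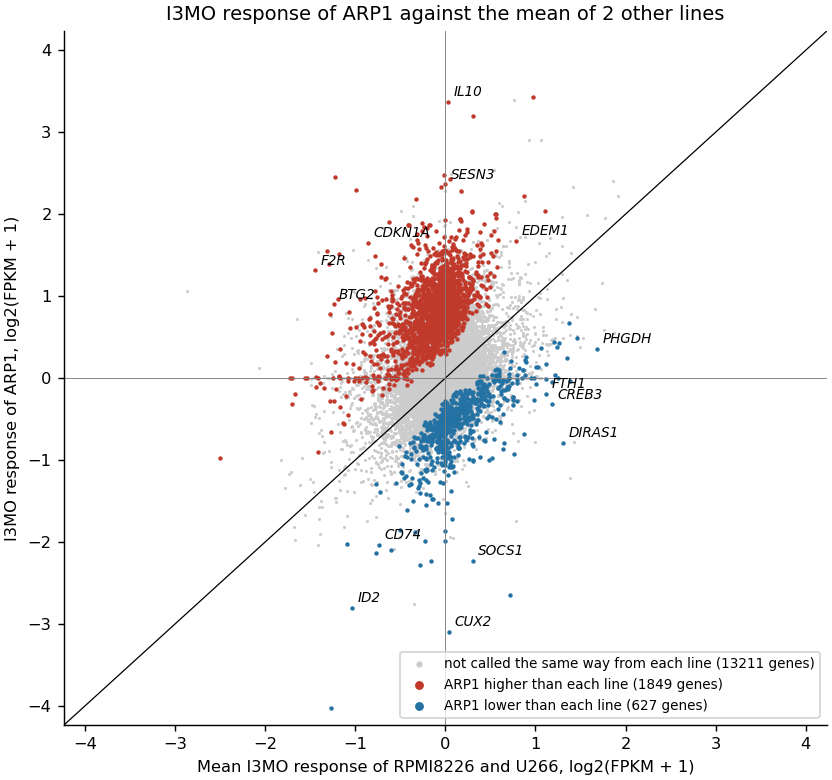
Change with 10 µM I3MO in ARP1 (vertical axis) against the mean change in RPMI8226 and U266 (horizontal axis), both on the log2(FPKM + 1) scale, with 1 point per tested gene and the diagonal of equal response. The 1849 higher genes (red) lie above the diagonal and the 627 lower genes (blue) under it, and IL10 and SESN3 sit near 0 on the horizontal axis.

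The split into higher and lower genes depended on scaling and on base composition. The median response difference over all tested genes was 0.11 with FPKM as deposited, -0.01 after median-ratio scaling of the libraries and 0.02 after upper-quartile scaling. The share called higher fell from 74.7% (1849 of 2476) to 42.4% with median-ratio scaling (1155 higher, 1567 lower) and 50.5% with upper-quartile scaling (1317 and 1289). Of the 1849 and 627 genes, 1147 and 626 were also called the same way after median-ratio scaling. The higher genes had a median GC content of 40.9% and the lower genes of 56.1%, against 48.6% over all tested genes, and their median transcript lengths were 4210 and 2731 bases against 2612. In the lowest of 5 GC bins 31.5% of genes were higher and 0.33% lower. In the highest bin these shares were 2.05% and 7.81%. A slope on GC content was taken in each library, for the log2(FPKM + 1) of each gene minus its mean over all 20 libraries. This slope moved with treatment in ARP1, from 0.10 and 0.03 per 10% GC in the DMSO libraries to -0.23 and -0.15 with I3MO. It was 0.22 to 0.25 in all 4 RPMI8226 libraries and 0.06 to 0.08 in all 4 U266 libraries. After a correction of each library for GC content and length, 559 of the higher and 431 of the lower genes were still called the same way, and 471 and 431 were called with all of deposited, median-ratio and GC-corrected values. Whether the slope came from the RNA, the library preparation or the treated cells was not tested.

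**Figure D2:**
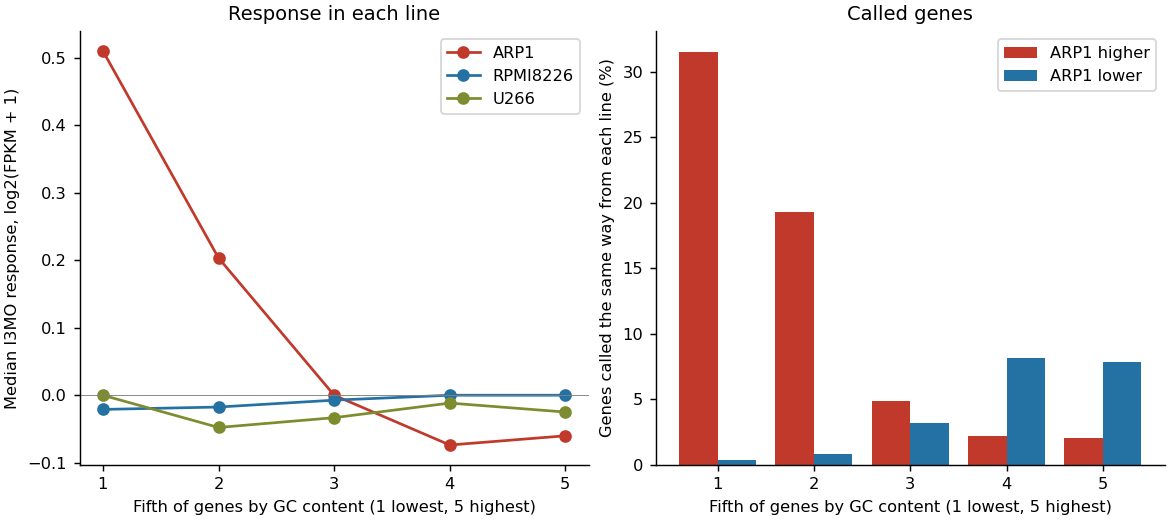
Genes grouped into 5 bins by GC content (horizontal axis, 1 lowest). Left, median change with I3MO on the log2(FPKM + 1) scale in each line, which falls from 0.51 to -0.06 in ARP1 and stays within 0.05 of 0 in the others; right, percent of genes in each bin called higher (red) or lower (blue) in ARP1 than in each other line.

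The 2 replicates of ARP1 also carried unequal weight. The count of 2476 genes became 1153 without ARP1 I3MO replicate 1 and 1325 without ARP1 DMSO replicate 1, and 2952 without U266 I3MO replicate 1. Leaving out each of the 12 libraries in turn, 790 of the higher and 226 of the lower genes kept their call every time, and 398 and 221 of the genes kept it both there and under the scaling and GC corrections. For genes given with a value and SE from here on, the libraries whose omission ended the call are named. For genes named only as list members these libraries are mostly not named, and some of those calls did not hold. Where none is named for a gene given with its value and SE, the call held without each of the 12. Counts in gene lists are less stable: a count moved by over 1.5 times in 30 of 42 lists without ARP1 I3MO replicate 1, in 26 without ARP1 DMSO replicate 1 and in 13 to 22 without any other library.

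IL10, an anti-inflammatory cytokine, ranked first among the 812 higher genes that met the naming rule (a symbol and at least 5 FPKM in some group). Its level was 0 and 0.0862 FPKM in the ARP1 DMSO libraries and 9.50 and 10.1 with I3MO. In RPMI8226 and U266 all 8 libraries lay between 0.0251 and 0.427 FPKM. Only the ARP1 I3MO libraries were therefore above 1, and the response difference was 3.34 ± 0.10 (limma adjusted p = 3.8e-09). IL10 lies on chromosome 1, 206767602 to 206772494 (hg38, minus strand).

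SESN3, a sestrin that restrains mTORC1 (chromosome 11, 95165513 to 95232541), showed the same pattern. It went from 0.406 and 0.765 FPKM to 8.85 and 5.69 in ARP1, and stayed at or under 0.0328 FPKM in the 8 libraries of the other lines. The groups of ARP1 did not overlap, and the difference was 2.37 ± 0.18 (limma adjusted p = 7.4e-06). GPRIN3, a neurite outgrowth inducer, went from 1.39 and 2.58 to 16.7 and 9.03 FPKM in ARP1 against 0.351 to 1.32 in the other lines, a difference of 2.51 ± 0.39. CDK6, a G1 cyclin-dependent kinase, went from 6.88 and 12.5 to 36.9 and 21.9 FPKM in ARP1 against 0.401 to 2.16 elsewhere (1.83 ± 0.35). In these 3 genes the other lines were low throughout and only the change in ARP1 passed the test; CDK6 changed by 1.51 in ARP1, -0.45 in RPMI8226 and -0.18 in U266.

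CDKN1A and F2R moved in opposite directions in ARP1 and in both other lines. CDKN1A, which encodes the cyclin-dependent kinase inhibitor p21 (chromosome 6, 36676460 to 36687339), was at 2.12 and 2.02 FPKM in ARP1 with DMSO and 8.07 and 9.23 with I3MO. It went from 16.6 and 14.8 to 8.40 and 8.50 FPKM in RPMI8226, and from 53.2 and 53.3 to 30.3 and 26.3 in U266. ARP1 thus began lowest and reached the level of treated RPMI8226, and no groups of a line overlapped. The changes were 1.65 in ARP1, -0.82 in RPMI8226 and -0.89 in U266, each past the threshold, and the difference was 2.51 ± 0.31 (limma adjusted p = 0.00018). F2R, the thrombin receptor PAR1 (chromosome 5, 76716043 to 76735781), went from 20.9 and 15.4 to 47.8 and 44.7 FPKM in ARP1. In RPMI8226 it went from 3.58 and 3.84 to 0.819 and 0.971, and in U266 from 21.5 and 22.6 to 5.20 and 8.67. ARP1 and U266 started at similar levels and did not overlap with I3MO, with a difference of 2.76 ± 0.27 (limma adjusted p = 4.4e-05). BTG2, an antiproliferative cofactor, also rose in ARP1 (10.8 and 8.34 to 18.4 and 18.9 FPKM) and fell in RPMI8226 (31.6 and 34.1 to 12.2 and 12.5) and U266 (81.3 and 72.3 to 34.2 and 34.0), a difference of 2.14 ± 0.24.

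Among the other named higher genes were TFRC, the transferrin receptor, MAN1A1, a mannosidase of N-glycan trimming, SERINC1, a serine incorporator, and LRRC58. TFRC went from 7.27 and 13.3 to 42.9 and 31.6 FPKM in ARP1, against 5.72 to 14.6 in the other lines, with a difference of 2.06 ± 0.39. MAN1A1 went from 10.6 and 16 to 56.2 and 44.7 FPKM in ARP1 and did not pass the test in the others (2.04 ± 0.36). In TFRC, SERINC1, LRRC58 and GPRIN3 the replicates of a group differed in a shared way: ARP1 DMSO replicate 1 was lower than replicate 2, and ARP1 I3MO replicate 1 and U266 I3MO replicate 1 were higher than their partners. LRRC58 was at 15.3 FPKM in U266 I3MO replicate 1 and 4.0 in replicate 2, and its call (2.38 ± 0.54) was lost without ARP1 DMSO replicate 1, ARP1 I3MO replicate 1 or RPMI8226 I3MO replicate 1. The same held for the nuclear non-coding RNA NEAT1, at 11.6 and 3.24 FPKM in the U266 I3MO libraries: its call (2.87 ± 0.65) was lost without ARP1 DMSO replicate 1, ARP1 I3MO replicate 1, U266 DMSO replicate 2 or U266 I3MO replicate 2.

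The last 3 of the 14 named higher features are short or intronic transcripts whose reads can come from a host gene or from near-identical copies, and the strand used in counting is not given in the sources used here. MIRLET7D, a let-7 precursor locus of 87 bases, differed by 3.29 ± 0.52 and ANKRD10-IT1, an intronic transcript of ANKRD10, by 2.53 ± 0.46. RNU4-47P, a spliceosomal RNA pseudogene, differed by 2.69 ± 0.57 and lost its call without ARP1 DMSO replicate 2, ARP1 I3MO replicate 1, RPMI8226 DMSO replicate 1 or RPMI8226 I3MO replicate 1. These 3 are reported as uncertain.

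Among the 436 lower genes that met the naming rule, CUX2, a homeobox transcription factor (chromosome 12, 111034024 to 111350554), fell in ARP1 from 8.90 and 7.85 to 0.0725 and 0.117 FPKM. It did not pass the test in RPMI8226 (0.855 and 0.866 to 0.352 and 0.298) and rose in U266 (0.0264 and 0.00783 to 0.567 and 0.473). The response difference was -3.14 ± 0.21 (limma adjusted p = 3.6e-06). SOCS1, the feedback inhibitor of JAK kinases (chromosome 16, 11254405 to 11256200), fell from 5.64 and 5.12 to 0.544 and 0.197 FPKM in ARP1. Its levels with DMSO and with I3MO overlapped in RPMI8226 (3.53 and 2.59 against 4.12 and 2.70), and in U266 they were 3.92 and 3.70 against 6.77 and 4.94, so the fall was seen in ARP1 alone of the 3 lines, with a difference of -2.53 ± 0.23 (limma adjusted p = 2.7e-05).

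ID2, an inhibitor of basic helix-loop-helix factors (chromosome 2, 8678845 to 8684453), fell in all 3 lines and furthest in ARP1. Its level went from 20.8 and 20.1 to 1.76 and 2.41 FPKM in ARP1, from 6.82 and 6.29 to 2.17 and 2.16 in RPMI8226, and from 9.62 and 8.71 to 4.01 and 5.55 in U266. ARP1 had the highest levels with DMSO and ended near the others with I3MO, and the difference was -1.76 ± 0.26 (limma adjusted p = 0.0006). H1-2, a linker histone gene (338 and 352 to 72.3 and 88.6 FPKM in ARP1) and CREB3L3, a membrane-bound transcription factor (7.14 and 7.0 to 1.15 and 1.22), were lower by -1.49 ± 0.23 and -1.55 ± 0.08. H1-2 also fell in U266, from 298 and 307 to 176 and 168 FPKM. CREB3L3 did too, from 3.08 and 3.10 to 1.71 and 1.78.

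CREB3, a transcription factor that is cleaved from the ER and Golgi membrane, and DIRAS1, a Ras-family GTPase, fell in ARP1 while both other lines rose. CREB3 (chromosome 9, 35732335 to 35737004) went from 12.2 and 12.3 to 8.95 and 10.4 FPKM in ARP1, from 8.04 and 8.37 to 17.6 and 17.3 in RPMI8226 and from 10.3 and 10.9 to 30.1 and 27.4 in U266. ARP1 was the highest of the lines with DMSO and the lowest with I3MO, and the difference was -1.5 ± 0.11 (limma adjusted p = 7.2e-06). DIRAS1 went from 4.51 and 4.44 to 2.43 and 1.93 FPKM in ARP1, against 7.66 and 6.82 to 15.1 and 15.8 in RPMI8226 and 10.1 and 8.92 to 31.2 and 31.0 in U266 (-2.10 ± 0.19). LIG3, a DNA ligase of base excision repair, fell in ARP1 alone of the 3 lines, from 10.1 and 9.09 to 2.73 and 2.59 FPKM (-1.45 ± 0.10). NAPSA, an aspartic protease, fell there from 26.7 and 30.0 to 5.88 and 6.89 FPKM (-1.77 ± 0.11), and DPEP3, a dipeptidase, from 5.38 and 5.42 to 0.215 and 0.511 (-2.08 ± 0.14); both stayed under 1 FPKM in all 8 other libraries.

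The remaining 4 named lower features are uncertain for the reasons given above for short or copied sequences. IGKJ5 (-3.37 ± 0.65) and IGKV1-6 (-1.99 ± 0.34) are immunoglobulin kappa segments. IGKJ5 lost its call without ARP1 DMSO replicate 2, ARP1 I3MO replicate 1 or U266 DMSO replicate 2, and IGKV1-6 moved to -1.32 without ARP1 DMSO replicate 2. MIR196A1 differed by -1.87 ± 0.14 and was listed at 0 in all 8 libraries of the other lines. CHCHD2P9, a pseudogene copy of CHCHD2, differed by -1.56 ± 0.23.

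**Figure D3:**
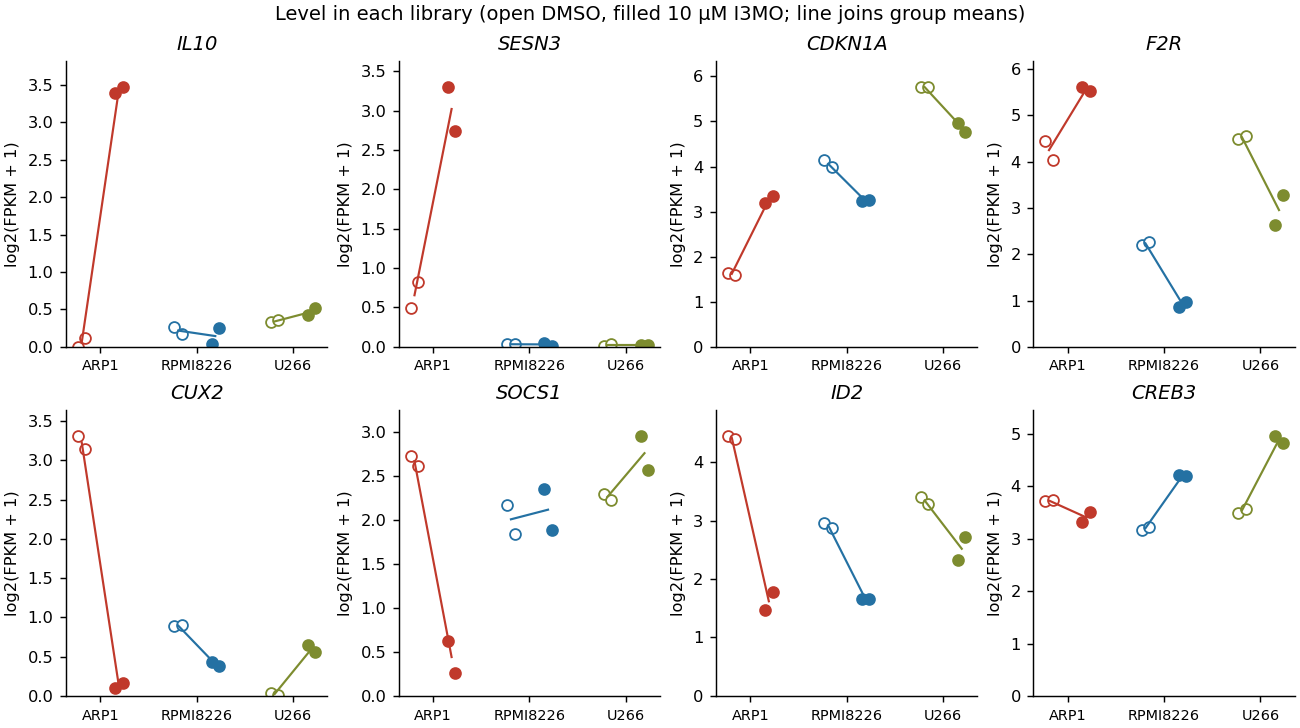
Level of 8 named genes in each of the 12 libraries on the log2(FPKM + 1) scale (open circles DMSO, filled circles 10 µM I3MO, lines joining the means of 2 libraries). IL10 and SESN3 rise and CUX2 and SOCS1 fall steeply in ARP1, CDKN1A and F2R move in opposite directions in ARP1 and the other lines, and CREB3 rises in RPMI8226 and U266 only.

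The gene lists that follow are read against 11.8% of all tested genes higher, 4.0% lower and a median difference of 0.11. p53 targets had the highest median of the 42 lists: of 24 tested members 10 were higher in ARP1 than in each line, 0 were lower, and the median was 0.89 (0.76 with median-ratio scaling, 9 higher; 0.58 with the GC correction, 7 higher). The 10 were CDKN1A, BTG2, GADD45A, PMAIP1, CCNG1, TIGAR, MDM2, PHLDA3, SESN1 and RRM2B. In ARP1 11 of the 24 rose and 1 fell, in RPMI8226 0 rose and 9 fell, and in U266 1 rose and 10 fell. PMAIP1, which encodes the BH3-only protein NOXA, went from 5.00 and 7.03 to 16.1 and 16.8 FPKM in ARP1 and stayed between 6.75 and 12.2 in the other lines, a difference of 1.47 ± 0.20. SESN1 went from 0.641 and 0.699 to 1.56 and 1.57 FPKM in ARP1 and fell in both other lines (0.92 ± 0.09). MDM2, the ubiquitin ligase of p53, named after its values were seen, was at 0.693 and 1.04 FPKM in ARP1 with DMSO and 1.83 and 1.43 with I3MO, against 2.41 and 2.57 to 1.04 and 0.535 in U266. Its difference was 1.17 ± 0.18, and it was not called with the GC correction (0.64).

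**Figure D4:**
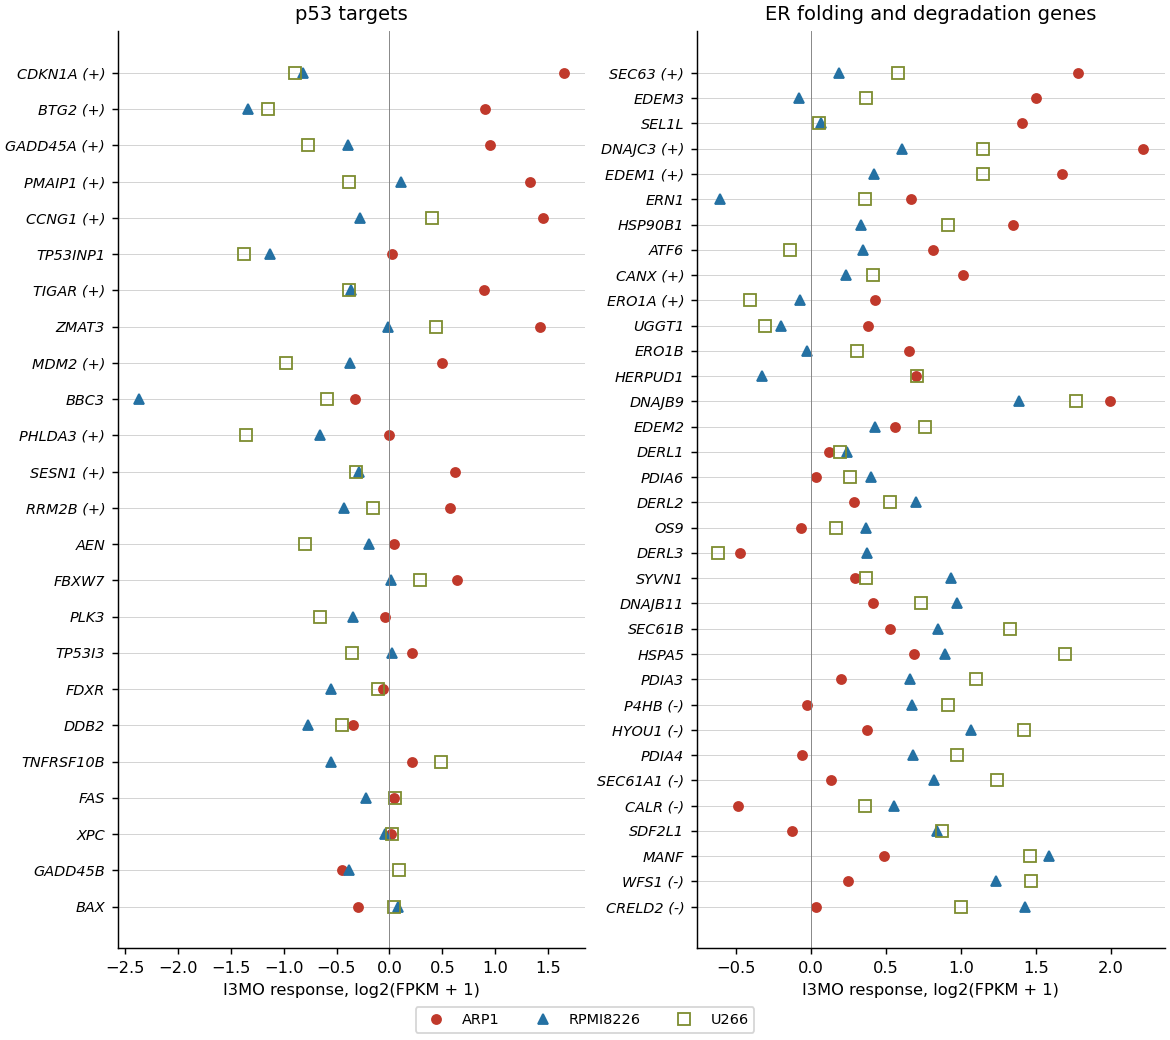
Change with I3MO on the log2(FPKM + 1) scale in ARP1 (filled circles), RPMI8226 (triangles) and U266 (open squares) for 24 p53 targets (left) and 34 ER folding and degradation genes (right), ordered by response difference; (+) and (-) mark genes higher or lower in ARP1 than in each line. ARP1 lies to the right of both other lines for 10 called p53 targets, while the ER genes run from SEC63, higher in ARP1, to CRELD2, lower.

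Many mitosis genes fell in U266 and RPMI8226. Of 31 mitosis genes 11 were higher in ARP1 and UBE2C alone was lower, with a median of 0.48 (0.26 with median-ratio scaling, 10 higher; 0.33 with the GC correction, 3 higher). Of the 31, 26 fell in U266 and 13 in RPMI8226, with 0 rising in either, while 8 rose and 10 fell in ARP1. CCNA2, cyclin A2, went from 9.89 and 8.75 to 1.62 and 1.66 FPKM in U266 and from 14.7 and 15.1 to 9.35 and 8.66 in RPMI8226. In ARP1 it was at 22.9 and 30.7 with DMSO and 33.0 and 31.6 with I3MO, and the difference was 1.59 ± 0.14 (limma adjusted p = 2.2e-05). NDC80, an outer kinetochore protein, differed by 1.87 ± 0.21 (3.24 and 5.33 to 9.23 and 6.97 FPKM in ARP1, 7.15 and 7.32 to 4.23 and 3.83 in RPMI8226, 4.20 and 4.53 to 1.06 and 0.935 in U266). Both kept their call with the GC correction. CDK1 (1.36 ± 0.16) and MAD2L1, a spindle checkpoint protein (1.54 ± 0.18), did not, at 0.87 and 0.96. Without ARP1 I3MO replicate 1 the count of 11 mitosis genes was 7.

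Repair genes rose in ARP1 and fell in U266 in part. Of 26 genes of homologous recombination and crosslink repair 10 were higher in ARP1 and 0 lower, with a median of 0.59 (0.42 with median-ratio scaling, 6 higher; 0.17 with the GC correction, 2 higher). In ARP1 13 rose and 4 fell, and in U266 0 rose and 16 fell. XRCC2, a protein of homologous recombination, went from 3.28 and 4.74 to 10.1 and 7.47 FPKM in ARP1 and from 2.17 and 2.15 to 0.654 and 0.227 in U266, with 2.13 to 2.71 in RPMI8226 (1.62 ± 0.20). FANCD2, the Fanconi protein that marks crosslinks, and CHEK1, a checkpoint kinase, differed by 1.09 ± 0.16 and 0.60 ± 0.09, and neither was called with the GC correction (0.71 and 0.13). The count of 10 was 4 without ARP1 DMSO replicate 1 or ARP1 I3MO replicate 1, 5 without any of the 4 RPMI8226 libraries and 6 without U266 DMSO replicate 1 or 2.

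DNA replication genes fell in ARP1 as well. Of 36, 22 fell and 4 rose in ARP1, 8 fell in RPMI8226 and all 36 fell in U266, and 5 were higher in ARP1 than in each line (RFC3, RRM1, MCM6, RFC4 and POLA1). The median difference from the mean of the lines was 0.10, near that of all genes, but it joined opposite signs. It was -0.38 against RPMI8226 and 0.70 against U266. With median-ratio scaling the median against the mean was -0.16 and 2 were higher, and 1 was higher with the GC correction. RFC3, a clamp loader subunit, went from 11.9 and 15.5 to 20.6 and 17.9 FPKM in ARP1, from 6.81 and 7.20 to 4.10 and 4.53 in RPMI8226 and from 4.93 and 5.07 to 2.17 and 1.90 in U266 (1.26 ± 0.16). MCM5, a helicase subunit, fell in ARP1 (-1.47), RPMI8226 (-0.66) and U266 (-1.80), and its response difference of -0.24 ± 0.09 did not pass (limma adjusted p = 0.061). Against the single lines MCM5 differed in opposite directions, by -0.81 from RPMI8226 and 0.33 from U266, each past the threshold. The count of 5 replication genes was 1 or 2 without any single library other than ARP1 DMSO replicate 2 and the U266 I3MO libraries. Of 7 inhibitors of cyclin-dependent kinases CDKN1A was the only one called against each line. Of 20 E2F factors and G1 cyclins 2 were higher (CDK6 and RBL2) and 2 lower (CDK4 and CCND3), against 2 and 3 with median-ratio scaling and 1 and 0 with the GC correction.

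Interferon-stimulated genes fell mainly in U266 and RPMI8226. Of 29 tested, 16 were higher in ARP1 against the mean of the lines (23.0% of all genes were), and IFIT3, MX1, USP18 and IFIT1 were higher against each line. Of the 29, 20 fell in U266, 11 in RPMI8226 and 3 in ARP1. A member near 0 FPKM in ARP1 with DMSO, as MX1 was, could not be seen to fall there. MX1, an antiviral GTPase, was listed at 0 to 0.00224 FPKM in the ARP1 libraries, so its difference of 1.41 ± 0.08 came from the other lines: 5.54 and 5.77 to 3.60 and 3.65 in RPMI8226, and 17.2 and 18.3 to 2.85 and 2.77 in U266. The list's median was 0.48, 0.34 with median-ratio scaling and 0.17 with the GC correction. Without ARP1 DMSO replicate 1, ARP1 I3MO replicate 1 or RPMI8226 DMSO replicate 2 the count of 4 was 2, and it was 7 without U266 I3MO replicate 2.

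Signalling genes of the JAK and STAT, immediate early and MAPK lists were mixed. PIM2, a survival kinase of plasma cells, fell in RPMI8226 from 164 and 171 to 52.8 and 54.3 FPKM and in U266 from 217 and 220 to 67.2 and 59.4. In ARP1 it was at 117 and 104 with DMSO and 86.2 and 90.5 with I3MO, a smaller fall, so the difference was positive (1.38 ± 0.14, limma adjusted p = 4.6e-05). PIM2, IL6ST and LEPROT were higher and SOCS1 lower among 18 genes of the JAK and STAT list. LEPROT turned to -0.042 with the GC correction, where 1 gene was higher, and 2 were with median-ratio scaling. The higher count was 1 without ARP1 DMSO replicate 1, ARP1 I3MO replicate 1, RPMI8226 I3MO replicate 2 or U266 DMSO replicate 2. Of 23 immediate early genes ZFP36L2, BTG2, KLF10 and TIPARP were higher and ZFP36L1 was lower (4 and 2 with median-ratio scaling). ZFP36L2, an mRNA decay factor, went from 35.8 and 29.4 to 128 and 118 FPKM in ARP1 and from 62.0 and 62.5 to 36.7 and 38.6 in RPMI8226, with 33.5 to 40.1 in U266 (2.15 ± 0.35). KLF10, a TGF-beta-induced factor, differed by 1.28 ± 0.15. Among 15 MAPK phosphatases and brakes PHLDA1, SPRED1 and DUSP6 were higher and DUSP10 lower. DUSP10 lost its call without any ARP1 library, any RPMI8226 library or either U266 DMSO library. DUSP6, the ERK phosphatase, went from 6.24 and 5.06 to 9.32 and 9.17 FPKM in ARP1 and was under 1.30 in all other libraries (1.15 ± 0.14). PHLDA1 went from 0.326 and 0.332 to 2.58 and 2.48 in ARP1 and stayed at or under 0.244 elsewhere (1.35 ± 0.08).

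ER folding and degradation genes split by direction. Of 34 tested, 6 were lower in ARP1 (P4HB, HYOU1, SEC61A1, CALR, WFS1 and CRELD2) and 5 higher (SEC63, DNAJC3, EDEM1, CANX and ERO1A), with a median of -0.31, -0.59 with median-ratio scaling and -0.30 with the GC correction. With the last, 6 were lower and 1 higher, and with median-ratio scaling 9 and 1. The split ran along GC content, at 53.8 to 59.5% in the 6 lower genes and 38.7 to 45.2% in the 5 higher. The cause was not tested. All lines raised many of these genes: 18 rose in ARP1, 16 in RPMI8226 and 22 in U266. CALR, the lectin chaperone calreticulin, went from 198 and 186 to 129 and 144 FPKM in ARP1, from 272 and 269 to 393 and 402 in RPMI8226 and from 146 and 150 to 185 and 196 in U266. ARP1 thus moved down and both others up, with no overlap within a line, and the difference was -0.95 ± 0.11 (limma adjusted p = 0.00016). WFS1, an ER membrane protein, went from 5.01 and 6.47 to 14.7 and 14.8 FPKM in RPMI8226 and 2.52 and 2.67 to 8.88 and 8.96 in U266, against 4.72 and 4.05 to 5.25 and 5.48 in ARP1 (-1.10 ± 0.13).

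Of the other genes with a promoter shown, CRELD2 was at 9.33 and 9.57 FPKM in ARP1 with DMSO and 9.03 and 10.4 with I3MO. It went from 7.27 and 6.37 to 19.7 and 20.3 in RPMI8226 and from 2.39 and 2.51 to 6.87 and 5.09 in U266 (-1.18 ± 0.25). HYOU1, a chaperone of the Hsp70 family, went from 8.91 and 8.26 to 11.3 and 11.6 FPKM in ARP1, from 18.1 and 17.3 to 36.2 and 40.1 in RPMI8226 and from 5.29 and 6.03 to 16.1 and 17.5 in U266 (-0.87 ± 0.16). CANX, the membrane lectin calnexin, went from 26.0 and 32.8 to 63.1 and 56.8 FPKM in ARP1, with 29.9 to 37.3 in RPMI8226 and 27.8 to 44.9 in U266 (0.69 ± 0.17). The calls of these 3 rested on single libraries: without ARP1 DMSO replicate 1 or ARP1 I3MO replicate 1 none of them held. CRELD2 also lost its call without ARP1 DMSO replicate 2, either U266 DMSO library or U266 I3MO replicate 1, HYOU1 without replicate 2 of RPMI8226 DMSO or I3MO, and CANX without any RPMI8226 library, either U266 DMSO library or U266 I3MO replicate 2. CANX was not called after median-ratio scaling or the GC correction (0.22), while CRELD2 and HYOU1 were.

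SEC63, which helps the translocon import proteins, went from 4.47 and 5.97 to 22.6 and 18.0 FPKM in ARP1 against at most 3.52 in the other lines (1.39 ± 0.21). EDEM1, of ER-associated degradation, rose in all lines, from 9.77 and 8.13 to 31.2 and 30.2 FPKM in ARP1 and from 11.1 and 10.6 to 24.8 and 25.8 in U266, and differed by 0.89 ± 0.14. It was not called against each line with median-ratio or upper-quartile scaling or with the GC correction, nor without ARP1 DMSO replicate 2, ARP1 I3MO replicate 1, either U266 DMSO library or U266 I3MO replicate 1. DNAJB9, an ER co-chaperone, rose by 1.99 in ARP1, 1.38 in RPMI8226 and 1.76 in U266, and its difference did not pass (0.42 ± 0.25, limma adjusted p = 0.21). The list counts of 5 and 6 were 2 and 2 without ARP1 DMSO replicate 1, and 1 and 2 without ARP1 I3MO replicate 1. Among 29 genes of ER to Golgi traffic SEC23A and SAR1A were higher and SURF4, SEC24C and SEC13 lower. With median-ratio scaling 1 was higher and 7 lower, with the GC correction 0 and 3, and without ARP1 DMSO replicate 2 the counts were 7 and 3. The higher count was 5 without U266 I3MO replicate 1 and 1 without ARP1 DMSO replicate 1, ARP1 I3MO replicate 1, RPMI8226 I3MO replicate 1 or U266 DMSO replicate 2. SEC13, a coat protein, had 7.87 and 8.71 FPKM in treated ARP1 against 12.7 and 13.3 in RPMI8226 and 13.5 and 15.6 in U266 (-0.72 ± 0.11).

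Targets of ATF4 and CHOP, the factors of the amino acid and integrated stress responses, rose in 25 of 35 cases in ARP1, 16 in RPMI8226 and 32 in U266, and fell in 0, 3 and 1. XPOT and CBS were higher and DDIT4 and PHGDH lower in ARP1 than in each line, with a median difference of 0.14 that turned to -0.14 with median-ratio scaling, where 1 was higher and 4 lower. The median of 0.14 joined opposite signs, 0.45 against RPMI8226 and -0.27 against U266. With the GC correction 1 was higher and 1 lower. Neither XPOT nor CBS was called without ARP1 I3MO replicate 1, and they did not both hold without ARP1 DMSO replicate 1 or any RPMI8226 library. DDIT4 lost its call in most fits that left a library out. PHGDH, which starts serine synthesis, went from 16.6 and 16.4 to 20.4 and 22.6 FPKM in ARP1, from 12.5 and 11.5 to 48.0 and 48.0 in RPMI8226 and from 27.7 and 29 to 81.5 and 77.3 in U266. It rose in both other lines and did not pass the test in ARP1, with a difference of -1.32 ± 0.17 (limma adjusted p = 0.00028). ASNS, which makes asparagine, rose by 1.61 in ARP1, 1.16 in RPMI8226 and 1.43 in U266, with a difference of 0.31 ± 0.16 that did not pass (limma adjusted p = 0.15). STC2, a secreted glycoprotein, had a difference of 0.14 ± 0.14 from the mean of the lines (limma adjusted p = 0.51). This mean joined opposite signs, 1.11 against RPMI8226 and -0.83 against U266, each past the threshold.

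Amino acid transporters split evenly, with SLC38A2, SLC38A1 and SLC36A4 higher and SLC1A5, SLC3A2 and SLC6A9 lower among 16. With median-ratio scaling 2 were higher and 3 lower, and with the GC correction 1 and 3. The 3 higher transporters had a GC content of 35.0 to 41.3% and the 3 lower of 57.4 to 61.3%. Whether GC content accounts for this was not tested. SLC38A2, a neutral amino acid carrier, went from 2.74 and 4.33 to 17.2 and 13.6 FPKM in ARP1 and from 5.91 and 5.63 to 2.62 and 2.74 in RPMI8226, with 6.41 to 11.7 in U266 (2.29 ± 0.31). SLC6A9, a glycine transporter, went from 1.04 and 1.14 to 1.79 and 2.07 FPKM in ARP1, against 1.96 and 2.02 to 5.64 and 5.73 in RPMI8226 and 2.47 and 2.50 to 10.9 and 10.9 in U266 (-0.98 ± 0.13). Of 20 aminoacyl-tRNA synthetases 6 were higher (LARS1, NARS1, RARS1, IARS1, FARSB and TARS1) and YARS1 was lower, with a median of 0.01 that was -0.28 with median-ratio scaling, where 3 were higher and 6 lower. With the GC correction 3 were higher and 1 lower. The 6 higher synthetases had a GC content of 41.4 to 44.3% and YARS1 of 55.7%. RARS1 went from 5.73 and 8.31 to 15.7 and 16.3 FPKM in ARP1, with 6.10 to 6.97 in RPMI8226 and 10.9 to 12.2 in U266 (1.08 ± 0.14). SLC25A32, a mitochondrial folate carrier, was the only higher member among 15 serine and one-carbon genes, where 1 was lower and 4 were with median-ratio scaling. SLC25A32 differed by 0.88 (± 0.12; 0.42 and not called with the GC correction). The transporter counts of 3 and 3 were 1 and 1 without ARP1 DMSO replicate 1 or ARP1 I3MO replicate 1, and the higher count was also 1 without replicate 2 of U266 DMSO or U266 I3MO.

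Heat shock genes had a median of -0.47 (-0.74 with median-ratio scaling, -0.41 with the GC correction). Of 18, FKBP4, STIP1 and HSPB1 were lower and HSF2 and HSPA4 higher, against 6 lower and 1 higher with median-ratio scaling. HSPB1, the small heat shock protein Hsp27, fell in ARP1 from 320 and 331 to 96.3 and 116 FPKM. It went from 164 and 168 to 118 and 121 in RPMI8226 and from 58.2 and 60.1 to 48.7 and 42.2 in U266, so the fall was largest in ARP1 (-1.19 ± 0.13, limma adjusted p = 7.6e-05). HSF2, a heat shock factor, differed by 1.16 ± 0.19 and HSPA4, an Hsp70 exchange factor, by 0.74 ± 0.14, neither called with the GC correction. The count of 2 higher heat shock genes was 5 without ARP1 DMSO replicate 2, and the count of 3 lower genes was 5 without U266 I3MO replicate 1.

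Among 22 targets of NRF2, the factor of the oxidative stress response, NFE2L2, its own gene, was higher and PGD and FTH1 lower (1 and 4 with median-ratio scaling). NFE2L2 went from 1.04 and 1.51 to 4.71 and 3.57 FPKM in ARP1 and stayed between 0.87 and 1.97 in the other lines (0.96 ± 0.16). PGD, of the pentose phosphate pathway, differed by -0.74 ± 0.12, with 27.3 and 25.9 to 21.7 and 23.1 FPKM in ARP1 and a rise in each other line. Of 34 proteasome subunits PSMA4 was higher and PSMD4 lower, which is under the share of all genes. In ARP1 5 rose and 13 fell, against 0 and 0 in RPMI8226 and 0 and 3 in U266. With median-ratio scaling 0 were higher and 4 lower, and with the GC correction 0 were called. Both proteasome calls were lost in most of the left-out fits, and PSMA4 moved to 0.40 without ARP1 DMSO replicate 1. SLC7A11, the cystine transporter, did not meet the rule of differing from each line (1.84 ± 0.46 against their mean, where limma called it). It went from 0.565 and 0.989 to 15.9 and 9.30 FPKM in ARP1, from 1.07 and 1.28 to 2.43 and 2.17 in RPMI8226 and from 1.99 and 2.78 to 14.8 and 4.82 in U266, where the treated replicates lay far apart, and its call was lost without ARP1 I3MO replicate 1.

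Of 30 genes of sterol and fatty acid synthesis 7 were higher in ARP1, among them ELOVL6, MSMO1, STARD4, HMGCS1, IDI1 and SC5D, and 0 lower. In ARP1 8 of the 30 rose, and in U266 7 fell. The median was 0.15, -0.11 with median-ratio scaling (6 higher) and 0.13 with the GC correction (1 higher, 1 lower). ELOVL6, a fatty acid elongase, went from 4.39 and 6.36 to 20.9 and 16.7 FPKM in ARP1 and was at or under 2.06 in the other lines (1.95 ± 0.27). MSMO1, a sterol oxidase, went from 7.26 and 11.9 to 27.4 and 25.3 FPKM in ARP1, from 5.80 and 7.09 to 7.19 and 7.56 in RPMI8226 and from 17.0 and 18.1 to 11.4 and 10.5 in U266 (1.64 ± 0.25). ELOVL6 kept its call with the GC correction (1.41), and MSMO1 (1.15) and SC5D (0.32) did not. Without ARP1 I3MO replicate 1 the count of 7 was 4.

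Of 32 genes of glycolysis and hypoxia NDRG1, PDK1, LDHB and MXI1 were higher and ENO1, P4HA2 and GAPDH lower, against 3 and 5 with median-ratio scaling and 2 and 2 with the GC correction. LDHB, a lactate dehydrogenase subunit, went from 95.4 and 162 to 241 and 269 FPKM in ARP1, with 106 to 117 in RPMI8226 and 26.2 to 40.9 in U266 (1.25 ± 0.24). NDRG1, a hypoxia-responsive gene, fell in RPMI8226 from 1.65 and 1.45 to 0.328 and 0.336 FPKM and in U266 from 4.73 and 4.65 to 1.19 and 1.5, while ARP1 stayed between 1.30 and 1.68 (1.29 ± 0.14). In this list the lower count of 3 was 0 without ARP1 DMSO replicate 1 and 1 without ARP1 DMSO replicate 2, ARP1 I3MO replicate 1 or U266 DMSO replicate 2, and the higher count of 4 was 2 without ARP1 I3MO replicate 1.

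Cytosolic ribosomal proteins had 7 of 36 lower, among them RPS14, RPL28, RPL18, RPS15, RPS18 and RPS27, and 0 higher, with a median of -0.40, -0.69 with median-ratio scaling (21 lower) and -0.38 with the GC correction (6 lower). The median change was -0.18 in ARP1, 0.22 in RPMI8226 and 0.19 in U266. The call count rested on single libraries: it was 0 without ARP1 I3MO replicate 1 or RPMI8226 I3MO replicate 1, 1 to 4 without either ARP1 DMSO library, either RPMI8226 DMSO library, RPMI8226 I3MO replicate 2 or U266 DMSO replicate 2, and 13 without ARP1 I3MO replicate 2. Many of these genes have processed pseudogenes that can share their reads. Of 30 ribosome biogenesis genes 7 were higher and BYSL, PES1 and NOP2 lower, with a median of -0.11. With median-ratio scaling the balance turned, to 3 higher and 9 lower (median -0.34), and with the GC correction 3 were higher and 1 lower (-0.02). GNL3, nucleostemin, went from 6.00 and 9.09 to 18.4 and 15.7 FPKM in ARP1, with 10.9 to 11.2 in RPMI8226 and 5.59 to 7.57 in U266 (1.22 ± 0.18). NOP58, a box C/D ribonucleoprotein, differed by 1.06 ± 0.17. The 7 became 4 without RPMI8226 DMSO replicate 1 or RPMI8226 I3MO replicate 1, and the 3 became 1 without ARP1 I3MO replicate 1 or RPMI8226 DMSO replicate 2.

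CD74 and HLA-DRA, of class II antigen presentation, fell in all 3 lines and furthest in ARP1. Of 10 MHC class II genes CD74, HLA-DRA and HLA-DPA1 were lower and 0 higher, with a median of -0.27 (-0.39 with median-ratio scaling, -0.27 with the GC correction), and 8 fell in ARP1, 5 in RPMI8226 and 10 in U266. CD74, the invariant chain, went from 50.9 and 47.1 to 11 and 11.4 FPKM in ARP1, from 193 and 209 to 115 and 121 in RPMI8226 and from 101 and 109 to 62.3 and 64.3 in U266 (-1.30 ± 0.18, limma adjusted p = 0.00035). HLA-DRA (-0.94 ± 0.18) lost its call without ARP1 DMSO replicate 1 or U266 I3MO replicate 2. HLA-DPA1 lost its call in most fits that left a library out. In class I, HLA-B was lower in ARP1 (38.8 and 38.7 to 17.3 and 21.3 FPKM; -0.76 ± 0.15) and the peptidase gene ERAP2 higher, of 15, with ERAP2 not called under the GC correction. HLA genes are polymorphic, and reads of related HLA genes can be assigned to each other.

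Of 18 core histones 1 was higher and 2 lower against the mean of the lines and none against each line. The median of 5 linker histones, H1-2 among them, was -0.62 (-0.91 with median-ratio scaling, -0.60 with the GC correction).

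Of 17 B cell and plasma cell factors PRDM1 and MEF2C were higher and PAX5 and IRF8 lower (1 and 2 with the GC correction). PRDM1, which encodes the plasma cell repressor BLIMP1, went from 15.6 and 12.4 to 24.2 and 21.6 FPKM in ARP1 and fell in RPMI8226, from 2.97 and 3.01 to 1.30 and 1.57, while U266 (7.14 and 7.84 to 4.78 and 4.89) did not pass (1.30 ± 0.25). IRF8 went from 1.12 and 1.27 to 0.172 and 0.182 FPKM in ARP1 (-0.86 ± 0.08), and was listed at 0 to 0.00543 in U266. Of 24 surface antigens ITGB1, CD28, CD55 and CD86 were higher and CD79A lower, against 3 and 2 with median-ratio scaling and 1 and 2 with the GC correction. CD79A, a B cell receptor chain, went from 3.87 and 5.07 to 0.637 and 0.668 FPKM in ARP1, and from 1.45 and 1.21 to 2.18 and 2.64 in U266 (-1.79 ± 0.13, limma adjusted p = 7.4e-06). ITGB1, the beta-1 integrin, went from 6.63 and 10.2 to 26.0 and 21 FPKM in ARP1 (1.5 ± 0.26), and neither it nor CD55 was called with the GC correction. The surface antigen count of 4 was 2 without RPMI8226 I3MO replicate 1.

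GPRC5D, a receptor used as a myeloma target, and KLF2, a quiescence factor of B cells, fell in ARP1 but did not meet the rule of differing from each line. They were set to be reported, and limma called both against the mean of the lines. KLF2 also passed against U266 (limma adjusted p = 0.037) but not against RPMI8226 (limma adjusted p = 0.079). The SE of each gene also takes in the spread among the ANBL6 and ANBL6BR libraries, while the replicates printed here lay close together. Whether spread in those other libraries accounts for the missed calls was not tested. GPRC5D went from 58.3 and 50.1 to 6.90 and 7.38 FPKM in ARP1 and stayed under 1 in the other lines (-2.41 ± 0.75, limma adjusted p = 0.027). KLF2 went from 94.2 and 72.7 to 18.8 and 18.8 FPKM in ARP1, from 22.3 and 23.8 to 13.8 and 13.8 in RPMI8226 and from 12.6 and 14.8 to 10.8 and 9.0 in U266 (-1.52 ± 0.47, limma adjusted p = 0.027). GPRC5D lost its call without any ARP1 library or U266 DMSO replicate 1, and KLF2 without ARP1 DMSO replicate 1, either ARP1 I3MO library or U266 DMSO replicate 1. With median-ratio scaling both were lower than in each line. CRYBB1, a crystallin gene, did not meet the rule either and was called against the mean alone (2.63 ± 0.70; not without ARP1 DMSO replicate 1), at 2.28 and 4.45 to 38.3 and 49.6 FPKM in ARP1 and 47.7 and 39.4 to 101 and 98.4 in RPMI8226. INHBE, an activin subunit, had opposite signs against RPMI8226 (1.44) and U266 (-0.35), so it did not differ the same way.

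Some genes tied to known targets of indirubins moved at low FPKM, where the log2(FPKM + 1) scale understates a change. CYP1A1, the reporter gene of the aryl hydrocarbon receptor, went from 0.327 and 0.290 to 1.22 and 1.22 FPKM in ARP1, from 1.29 and 1.37 to 0.791 and 0.75 in RPMI8226, and lay between 0.136 and 0.240 in U266 (0.96 ± 0.09, limma adjusted p = 3.8e-05). TIPARP, another receptor target, went from 0.604 and 0.737 to 2.19 and 1.64 FPKM in ARP1, and did not pass the test in the others (0.91 ± 0.16; 0.50 with the GC correction, still called). CYP1A1, TIPARP and ABCG2 were the higher members of 10, and 0 were lower; 1 was lower with median-ratio scaling, and 2 were higher with the GC correction. Of 12 genes of WNT and GSK3, GSK3B and FZD6 were higher. With the GC correction 0 were called, and with median-ratio scaling 2 were higher and 3 lower. The count of 2 was 0 with ARP1 DMSO replicate 1 or ARP1 I3MO replicate 1 left out, 1 without either DMSO library of U266, replicate 1 of RPMI8226 DMSO or I3MO, or U266 I3MO replicate 2.

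Survival and NF-kB genes were mixed too. PMAIP1, BCL2 and BMF were higher and BIK lower among 15 BCL2 family genes, against 2 higher and 3 lower with median-ratio scaling and 3 and 0 with the GC correction. BIK lost its call in most fits that left a library out. BCL2 went from 3.64 and 3.86 to 8.83 and 7.11 FPKM in ARP1, from 4.80 and 4.73 to 2.63 and 3.08 in RPMI8226 and from 12 and 12.3 to 9.81 and 9.23 in U266 (1.37 ± 0.27), a call lost without ARP1 I3MO replicate 1, where 1 family member was higher. Of 22 NF-kB regulators BIRC2 was higher and RELA, ICAM1 and CD83 lower. With median-ratio scaling 1 was higher and 8 lower, and with the GC correction 0 and 2. CD83, an activation marker, went from 2.91 and 1.70 to 0.879 and 0.859 FPKM in ARP1 and from 10.2 and 11.8 to 13.8 and 13.2 in RPMI8226 (-1.0 ± 0.17). The response of MYC did not differ past the threshold (0.14 ± 0.45, limma adjusted p = 0.85), at 40.4 and 33.1 to 22.1 and 23.7 FPKM in ARP1, 111 and 111 to 46.5 and 52.4 in RPMI8226 and 0.651 and 0.721 to 0.217 and 0.261 in U266. VEGFA, a vascular growth factor, had a difference of 0.15 ± 0.09 (limma adjusted p = 0.23).

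In the lysosome list LAMP2, a lysosomal membrane protein, went from 5.86 and 6.67 to 15.9 and 14.6 FPKM in ARP1, with 4.14 to 4.63 in RPMI8226 and 12.4 to 14.3 in U266 (1.2 ± 0.13). Of 27 genes in the list LAMP2 and NBR1 were among the higher ones, and ATP6V0D1 was lower. In that list 3 were higher and 1 lower, against 1 and 2 with median-ratio scaling. Among polyamine genes ATP13A3, AMD1 and AZIN1 were higher and ATP13A2 lower, of 14; with the GC correction 0 were called either way, and with median-ratio scaling 2 were higher and 3 lower. In transcription elongation CCNT1, AFF4 and CCNT2 were higher and SUPT5H, NELFB, NELFE and MEPCE lower, of 23, against 1 and 1 with the GC correction. Among 22 homing and adhesion genes ITGB1 and S1PR1 were higher and ICAM1, CCR10, S1PR2 and ICAM2 lower (2 and 2 with the GC correction). S1PR1, a sphingosine phosphate receptor, went from 0.385 and 0.372 to 1.5 and 1.59 FPKM in ARP1 and moved by at most 0.11 in the others (0.98 ± 0.11). Without ARP1 I3MO replicate 1 the polyamine counts were 1 and 0, the elongation counts 0 and 1 and the lower homing count 1, and without ARP1 DMSO replicate 1 they were 1 and 0, 0 and 2, and 1.

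**Figure D5:**
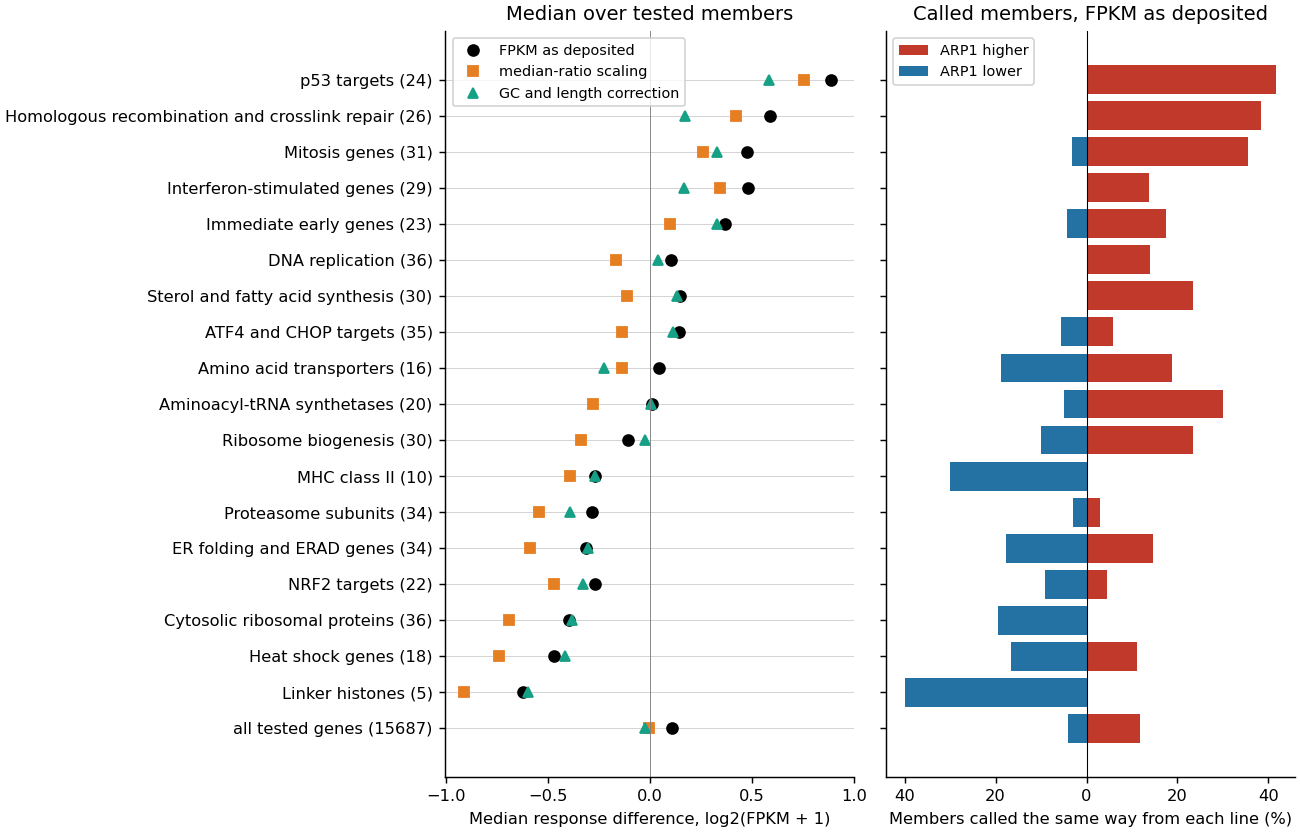
Left, median response difference of ARP1 over the tested members of 18 gene lists and all tested genes on the log2(FPKM + 1) scale, with FPKM as deposited (circles), median-ratio scaling (squares) and the GC and length correction (triangles); right, percent of members higher (red) or lower (blue) in ARP1 than in each other line, with the number tested beside each name. The p53 targets have the highest medians under all 3, the linker histones the lowest, and replication, sterol, ATF4, amino acid transporter and aminoacyl-tRNA synthetase lists, like all tested genes, change sign with median-ratio scaling.

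The 5 µM groups are given side by side only, since the dose differed. IL10 changed by -0.29 in ANBL6 and 0.00 in ANBL6BR, SESN3 by 0.01 and 0.01, CDKN1A by -0.29 and -0.25 and SOCS1 by -0.49 and -0.29, none past the threshold. ID2 changed by -0.37 in ANBL6, which did not pass, and fell in ANBL6BR by 1.77. CREB3 rose in both, by 0.56 and 1.16, and DIRAS1 by 0.98 and 1.43, while BTG2 fell by 0.86 and 0.93.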

How the data were processed

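RNA sequencing values of 12 libraries were compared, with 8 more in the fit. The authors deposited FPKM for 60483 genes, and the 20 single-library tables matched the joint one value for value. Trimmomatic (0.32 and 0.36), STAR, SAMtools and hg38 are named, with no role given, per the submitters' processing notes; the counting tool, its annotation and its strand setting are not given in the sources used here. Fragment totals were recovered from the steps of the deposited FPKM. The deposited FPKM divide by the exon lengths summed over all transcripts of a gene, which gave whole fragments (within 0.02) for 100.0% of 22467 values checked, so genes with many transcripts read low against other genes. No count test was run.

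The 15687 genes that reached 1 FPKM in 2 or more of the 20 libraries were fitted by limma 3.58.1 in R 4.3.3 on log2(FPKM + 1), with 1 mean per group and an intensity trend of the variance. Tests were two-sided, with p-values adjusted by the Benjamini-Hochberg method over all tested genes, and called at an adjusted p under 0.05. The fit was tested on simulated data. Labels gave the groups and replicate numbers. Symbols and positions came from GENCODE 29 (56753 of 60483 identifiers had a symbol). Named genes were called in all 3 response differences with one sign, kept it after median-ratio scaling, had a symbol and a mean of at least 5 FPKM in at least 1 of 6 groups, and were the 14 of each direction with the largest value of the smaller single difference; up to 4 members with the smallest p per list and 18 genes set by name were added. The members, the 42 lists and the rules were chosen with earlier results of these data known. Lists are described by counts and medians, without a set test, and some of their members are not reported here. Alternatives were median-ratio and upper-quartile scaling, other pseudocounts and filters, fits of the 12 libraries or of protein-coding genes alone, no variance trend, a replicate block, each library left out, and, chosen after seeing the data, a crossed block and a correction for GC content and length. Promoters are from RefSeq, GRCh38.p14. No intervals from counts were computed, and depth is given as recovered fragments.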

Additional observations from a re-analysis of the deposited data

Results flagged for a closer look

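Each gene here had a response to I3MO in ARP1 that differed from the response in both other lines by a test of the difference itself, among the genes named by rule or set to be reported. Values are response differences on the log2(FPKM + 1) scale. Higher in ARP1 were IL10 (3.34), MIRLET7D (3.29), NEAT1 (2.87), F2R (2.76), RNU4-47P (2.69), ANKRD10-IT1 (2.53), CDKN1A (2.51), GPRIN3 (2.51), LRRC58 (2.38), SESN3 (2.37), SERINC1 (2.27), BTG2 (2.14), TFRC (2.06), MAN1A1 (2.04), CYP1A1 (0.96) and EDEM1 (0.89). Lower were IGKJ5 (-3.37), CUX2 (-3.14), SOCS1 (-2.53), DIRAS1 (-2.10), DPEP3 (-2.08), IGKV1-6 (-1.99), MIR196A1 (-1.87), NAPSA (-1.77), ID2 (-1.76), CHCHD2P9 (-1.56), CREB3L3 (-1.55), CREB3 (-1.50), H1-2 (-1.49), LIG3 (-1.45) and CD74 (-1.30). EDEM1 was the only one not called against each line after median-ratio scaling, upper-quartile scaling and the GC correction.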

How the results depend on the processing

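Depth of 13.77 to 20.31 M fragments and 2 libraries per group limit what can be called. The pseudocount of 1 in log2(FPKM + 1) understates changes of low genes. The counts of called genes were 5246 against the mean of the other lines, 4239 against RPMI8226, 4808 against U266 and 2476 the same way from each. With a filter of FPKM at least 5, which leaves fewer genes to test, they were 2931, 2549, 2663 and 1525, and the responses of ARP1 and U266 had 3339 and 2418 calls against 5801 and 4117. With the GC and length correction, chosen after seeing the data, 2774 genes differed from RPMI8226 and 1339 from each line; the cause was not tested.

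Left-out libraries gave 2892 to 5961 calls against the mean, 2252 to 4878 against RPMI8226, 3102 to 5519 against U266 and 1153 to 2952 the same way from each, and 3509 to 6215, 1144 to 2583 and 2869 to 4191 for the responses of ARP1, RPMI8226 and U266. The lowest count against each line was without ARP1 I3MO replicate 1.

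The replicate numbers were not taken as pairs, since the labels name no shared culture, batch or day. Same-numbered libraries also did not deviate together (correlations of -0.11 in ARP1, -0.03 in RPMI8226 and -0.04 in U266). With a replicate block the counts were 3863 against the mean, 2545 against RPMI8226, 3470 against U266 and 1368 from each, with 1541 calls in RPMI8226 against 2323. With the block crossed in ARP1, chosen after seeing the data, they were 4317, 3311, 3978 and 1966, with 1527 in RPMI8226.

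Of 187 named genes called against the mean, 160 kept direction and call with the GC correction, 176 with median-ratio scaling, 181 with upper-quartile scaling and 157 without ARP1 I3MO replicate 1. The sign turned for HLA-DQA1 (-0.18) and LEPROT (-0.042) with the GC correction, and for MYCL (-0.041) and SMOX (0.11) with a pseudocount of 0.1; the cause was not tested.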

Other observations

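Among 17 sestrins and mTORC1 brakes SESN3, SESN1 and TSC1 were higher in ARP1 than in each line and DDIT4 was lower, with a median difference of 0.34 (0.10 with median-ratio scaling, 0.06 with the GC correction). The counts of 3 and 1 were 2 and 2 with median-ratio scaling and 2 and 0 with the GC correction. DDIT4 lost its call in most fits that left a library out. Of 14 ID and BMP genes SMAD5 and BMPR1A were higher and ID2 lower (median 0.46, then 0.29 and 0.02), with counts of 2 and 3, then 1 and 2. SMAD5, a signal transducer of BMP receptors, went from 0.830 and 1.54 to 5.18 and 3.78 FPKM in ARP1 and lay between 0.455 and 1.80 in the other lines (1.29 ± 0.26, limma adjusted p = 0.0036), a call kept under median-ratio scaling, the GC correction and without each of the 12 libraries.

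Of 34 respiratory chain genes UQCRC2 and NDUFS1 were higher and NDUFS3 lower, with a median of -0.15 (-0.42 with median-ratio scaling, -0.20 with the GC correction). With median-ratio scaling the balance turned, to 0 higher and 7 lower, and with the GC correction 1 was higher and 3 lower. Of 13 genes of the MYC and MAX network MYCBP and MXI1 were higher and MLX lower (median 0.14, -0.02 with median-ratio scaling, where 0 were higher and 1 lower). MYCBP was not called against each line after median-ratio scaling or the GC correction. Of 9 TXNIP and arrestin-domain genes 0 differed from each line, and limma called 2 higher and 0 lower against the mean of the lines (median 0.06, -0.08 with median-ratio scaling). Without single libraries the higher counts ran from 2 to 5 for the sestrin list, 2 to 4 for ID and BMP, 0 to 2 for MYC and MAX, 1 to 2 for the respiratory chain and 0 to 1 for TXNIP.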
